A study of Sus scrofa with 12 samples.

Results

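miR-26a is a microRNA (miRNA, a short RNA that guides the silencing of messages whose 3′ ends pair with it) tied in other species to bone formation and vessel growth. It was 1 of 252 mature pig miRNAs listed for vesicles of bone marrow stromal cells, and it was taken up here as the single row ssc-miR-26a because its mean share of the library was smaller in both dynamic cultures than on plates. Its levels against plates are therefore a description with no test. The vesicles, membrane particles that cells release, were collected by ultracentrifugation of the medium of passage 3 mesenchymal stromal cells from 4 juvenile Yucatan minipigs (wild type per the labels). Cells of each donor were grown in 3 ways: on a scaffold in a perfusion bioreactor with medium circulating at 4 mL/min, on microcarriers in a spinner flask, and on flat tissue culture plates seeded at 5000 cells per cm2. The labels give 10% fetal bovine serum for plates and for microcarriers (added there after 2 h without serum) but name none for perfusion, so flow, support and medium cannot be told apart. Each donor and culture gave 1 library, 12 in all.

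In mammals the miR-26 precursors lie in introns of the genes for the small CTD phosphatases, and in the RefSeq pig annotation (Sscrofa11.1) the single entry MIR26A falls within the span of CTDSP2, between AVIL and ATP23. miR-26a and miR-26b share the seed, the stretch near the 5′ end that selects targets. Known targets of miR-26a in human and mouse cells include EZH2 (a histone methyltransferase), GSK3B (a kinase that restrains Wnt signalling) and SMAD1 (a carrier of BMP signals). Work in mouse bone marrow stromal cells found that it favours osteoblast formation and bone repair with vessel growth, while work in human fat-derived stromal cells and in endothelial cells found it to restrain osteoblast formation and vessel growth.

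Summed over the 252 listed miRNAs, the libraries held 671012 to 1614726 reads in perfusion, 607776 to 2244584 on microcarriers and 264407 to 3253003 on plates. Plate donor 2 was the smallest. Reads outside the listed miRNAs are not in these totals, and each share of the library is a share of the listed miRNAs. The 12 stromal marker miRNAs together held 48.8% to 50.6% of the normalized counts in perfusion, 38.7% to 51.3% on microcarriers and 35.7% to 47.1% on plates. That is no check of the label of the cells, since the list holds several of the 10 most abundant miRNAs. These sums rest largely on 1 member, miR-21-5p, which alone averaged 27.7% in perfusion, 27.6% on microcarriers and 21.7% on plates. The 7 blood-cell markers summed to 39.1 to 384.6 normalized counts in perfusion, 2457 to 8852 on microcarriers and 699.0 to 3228 on plates, and miR-223, a myeloid marker, was listed at 0 in all 4 perfusion libraries. The 2 endothelial markers, both arms of miR-126, summed to 118.7 to 190.8 in perfusion, 944.8 to 6092 on microcarriers and 582.9 to 2184 on plates. The 4 measured liver and gut markers reached at most 68.0 in perfusion, 2494 on microcarriers and 1257 on plates, the 3 muscle markers 883.8, 999.7 and 1982, and the 3 neural markers 1498, 1240 and 1390, while none of the 6 epithelial markers is in the table. The highest of these non-stromal sums lay below the lowest level of miR-26a (21763), which does not show how much miR-26a came with these markers. With blood-cell, endothelial, liver and gut markers out of the total, the miR-26a share in perfusion minus microcarriers was -0.16 percentage points, against -0.14 otherwise. The blood-cell, endothelial, and liver and gut markers held at most 0.75%, 0.516% and 0.211% of a library. Taking them out of the total could thus move the share only little. Any part of the markers in the differences of miR-26a beyond this total was not tested.

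miR-26a was an abundant vesicle miRNA in every culture and lay lowest in perfusion, slightly higher on microcarriers and highest on plates in group means. Perfusion libraries held 21763, 34382, 31002 and 34631 normalized read counts in donors 1 to 4. Microcarrier libraries held 41971, 40427, 28250 and 29414. Plate libraries held 48560, 64383, 28210 and 84317. Perfusion and microcarrier libraries overlapped, and 3 of the 4 plate libraries lay above every dynamic one, while plate donor 3 lay below 3 of 4 perfusion libraries and below all 4 microcarrier libraries.

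The means were 30444 ± 6020 normalized counts in perfusion, 35016 ± 7184 on microcarriers and 56368 ± 23799 on plates (SD, n = 4 each). In a limma fit of log2(normalized count + 1) over all 252 miRNAs, miR-26a differed by -0.80 ± 0.31 in perfusion minus plates and by -0.60 ± 0.31 on microcarriers minus plates (SE, log2 scale). These are the differences for which it was chosen. In vesicle RNA, fewer vesicles that carry a miRNA and fewer copies per vesicle cannot be told apart.

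As a share of the library, miR-26a held 2.05%, 2.64%, 2.93% and 2.86% in perfusion donors 1 to 4. It held 3.55%, 3.01%, 2.32% and 2.14% on microcarriers and 4.49%, 4.94%, 2.42% and 6.37% on plates. Counting error was small beside these gaps: the widest exact 95% binomial interval, for the shallowest plate library (13068 of 264407 reads), ran from 4.86% to 5.03% and covers counting error only. The mean shares were 2.62% ± 0.402 in perfusion, 2.76% ± 0.650 on microcarriers and 4.56% ± 1.63 on plates (SD, n = 4 each). The perfusion mean was thus 1.94 percentage points below the plate mean, and the microcarrier mean 1.80 points below it.

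**Figure D1:**
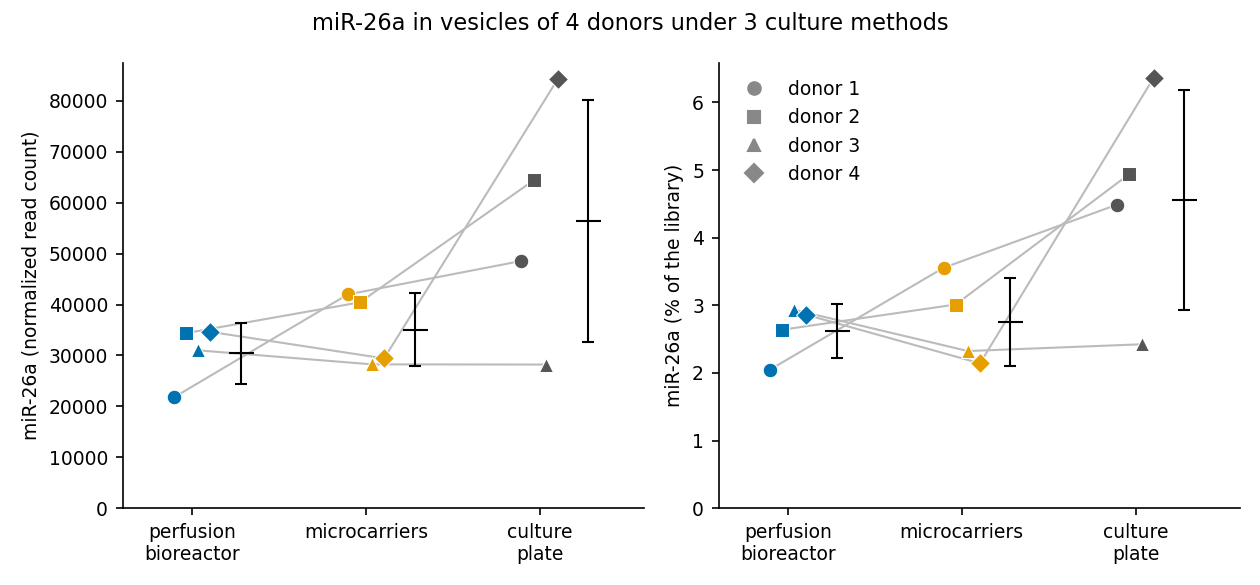
miR-26a by library as normalized read count (left) and as percent of the library (right) in perfusion, microcarrier and plate cultures; marker shape is the donor, grey lines join libraries of 1 donor, and the black bar is the mean ± SD of 4 libraries. The plate libraries of donors 1, 2 and 4 stand above all 8 dynamic ones, and donor 3 stays between 28210 and 31002 normalized counts in all 3 cultures.

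Shares depend on what else fills a library, and miR-21-5p, an anti-apoptotic miRNA, filled the most. It took 27.7% ± 1.20 in perfusion, 27.6% ± 5.13 on microcarriers and 21.7% ± 4.18 on plates (SD, n = 4 each). With miR-21-5p taken out of the total, miR-26a held 3.62% ± 0.506 in perfusion, 3.78% ± 0.629 on microcarriers and 5.82% ± 2.09 on plates. The order of the 3 means was the same with and without miR-21-5p.

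The gap to plates differed by donor. In donor 1 perfusion held 0.45 times and in donor 2 0.53 times the miR-26a level of the plate culture of the same animal. In donor 4 it held 0.41 times that level, but in donor 3 1.10 times. Perfusion was thus lower in 3 of 4 donors, by level and by share.

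Microcarriers held 0.86 times the plate level in donor 1, 0.63 times in donor 2, 1.00 times in donor 3 and 0.35 times in donor 4. By level 3 of 4 donors were lower, and by share all 4, donor 3 by only 0.10 points. Donor 4 had the widest gap to plates for both dynamic cultures, and its plate library was also the deepest of the series.

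The plate libraries set the size of both gaps. Their highest and lowest levels of miR-26a differed 2.99-fold, against 1.59-fold among perfusion libraries and 1.49-fold among microcarrier libraries. On the log2 scale the SD of miR-26a was 0.32 in perfusion, 0.30 on microcarriers and 0.68 on plates. The median SD of the 50 most abundant miRNAs was 0.30 in perfusion, 0.34 on microcarriers and 0.52 on plates, so plates were the more variable group for those miRNAs too. Without plate donor 3 the fitted differences were -1.10 for perfusion minus plates and -0.90 for microcarriers minus plates, and without plate donor 4 they were -0.57 and -0.37.

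Between the dynamic cultures, no difference was detected. The choice of miR-26a did not rest on this comparison, but it used the shares of both cultures, so the 2 are not independent. Perfusion minus microcarriers was -0.20 ± 0.31 on the log2 scale, with a 95% interval of -0.87 to 0.46 and an adjusted p of 0.678 in limma. The interval still allows a level in perfusion below or above that on microcarriers, so the cultures were not shown to be alike. By share the difference was -0.14 percentage points. An exact two-sided permutation test of 4 against 4 libraries, which ignores the donor pairs, gave p = 0.714, where 0.0286 is the smallest possible. In that test shifts from -1.50 to 0.79 points were not rejected. Paired by donor, an exact test that flips the sign of each donor's difference gave p = 0.875, where 0.125 is the smallest possible. Donors split evenly: perfusion held 0.52 and 0.85 times the microcarrier level in donors 1 and 2, and 1.10 and 1.18 times in donors 3 and 4.

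The sign of the mean difference in share rested on donor 1, at 0.05 points without its perfusion library and 0.13 points without its microcarrier library. Scaling to library totals in place of the deposited factors moved the median of all miRNAs in perfusion minus microcarriers from -0.07 to 0.08 and miR-26a from -0.20 to -0.06 (log2). miR-26a was not among the 39 of 252 miRNAs (15.5%) called in this comparison at an adjusted p under 0.05 in limma, a count that was 24, 25 and 22 without perfusion donors 1, 3 and 4. Called means this threshold throughout.

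Against plates, 52 of 252 miRNAs (20.6%) were called in perfusion and 6 of 252 (2.38%) on microcarriers. The first count was 29 and 30 without perfusion donors 1 and 3, and the second was 12, 3 and 3 without plate donors 1, 3 and 4. With donor as a block, 64 and 23 were called. Both dynamic cultures were set against the same 4 plate libraries. Whether miR-26a passed in either comparison is not given, since it was chosen on them.

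By rank miR-26a stood at 11, 9, 10 and 10 in perfusion donors 1 to 4, at 9, 9, 12 and 11 on microcarriers and at 9, 6, 11 and 5 on plates. By mean share it was 10th in perfusion and on microcarriers and 8th on plates. In perfusion its neighbours were let-7a above (2.97% ± 0.278) and let-7g below (2.36% ± 0.117), both of the let-7 family, which represses growth-promoting genes. The same pair framed it on microcarriers, with let-7a at 3.56% ± 1.19 and let-7g at 2.18% ± 0.355 (SD, n = 4 each). On plates it lay between let-7f-5p (5.39% ± 1.32) and miR-199a-3p, a stromal miRNA (4.44% ± 1.94). In each culture the range of miR-26a overlapped those of both neighbours, so its position among them is not fixed by these libraries.

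Set among the 10 most abundant miRNAs, miR-26a had the lowest mean share over the 12 libraries, 3.31% ± 1.32 (SD). Of the 10, let-7a also had a lower mean share in both dynamic cultures, at 2.97% in perfusion and 3.56% on microcarriers against 5.84% on plates, and let-7f-5p had 4.36% and 4.96% against 5.39%. The gap of miR-199a-3p was far smaller, at 4.43% and 4.23% against 4.44%. miR-148a-3p was also lower in both, at 7.11% in perfusion and 4.60% on microcarriers against 7.29% on plates, a small gap in perfusion. miR-143-3p was lowest on microcarriers, at 3.63%, but higher in perfusion (7.49%) than on plates (6.25%). miR-100, of the miR-99/100 family, had higher means in both dynamic cultures, at 5.18% in perfusion and 4.59% on microcarriers against 3.27% on plates.

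**Figure D2:**
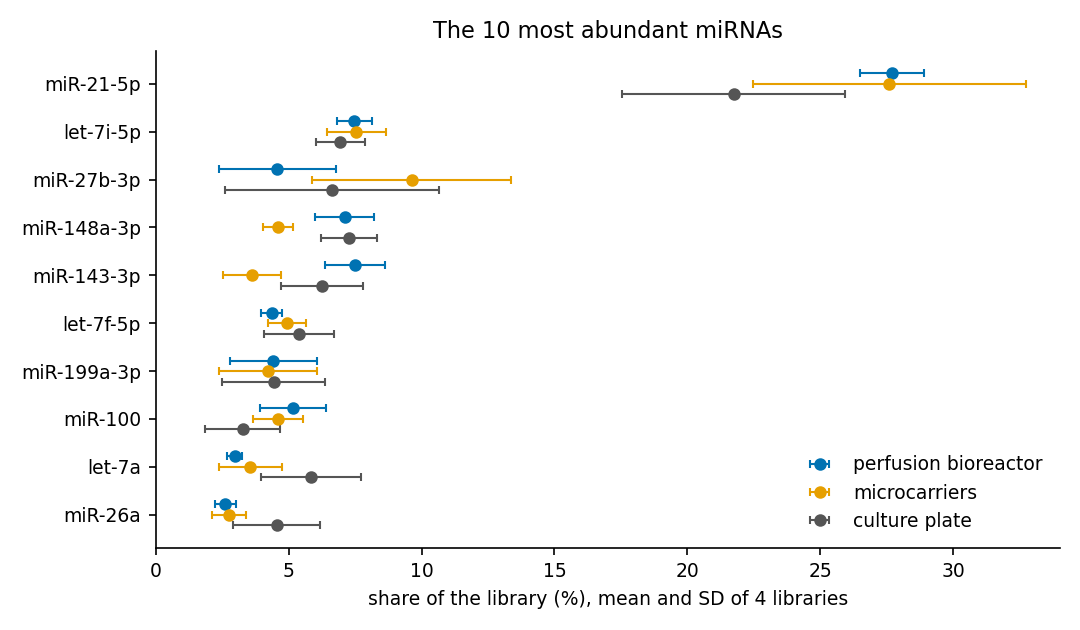
Mean share of the library (percent, horizontal axis) with SD over 4 libraries for the 10 most abundant miRNAs in perfusion, microcarrier and plate cultures. miR-26a, the bottom row, lies at 2.62% in perfusion and 2.76% on microcarriers and at 4.56% on plates with the SD of 1.63 reaching toward both.

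The family member miR-26b-5p, which shares the seed and was not used in the choice, had smaller mean differences between cultures. Since miR-26a was chosen for its gap to plates, its differences from plates may be overstated beside those of miR-26b-5p. Whether the family members differ in their gap to plates was not tested. The mature form of miR-26b-5p is close in sequence to miR-26a, so reads that fit both could have been split between them in counting. It held 4144, 5006, 6360 and 5153 normalized counts in perfusion donors 1 to 4. It held 4983, 4800, 5565 and 6695 on microcarriers and 7042, 5360, 6219 and 7916 on plates. The 3 ranges overlapped, and plate donor 3, low in miR-26a, was not low in miR-26b-5p.

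Its means were 5166 ± 912 in perfusion, 5511 ± 854 on microcarriers and 6634 ± 1096 on plates (SD, n = 4 each), and no comparison passed in limma. Perfusion minus plates was -0.36 ± 0.23 (log2, adjusted p = 0.288) with a 95% interval of -0.85 to 0.12, and lower in 3 of 4 donors. Microcarriers minus plates was -0.26 ± 0.23 (adjusted p = 0.492) with an interval of -0.75 to 0.22, and lower in 4 of 4 donors. Perfusion minus microcarriers was -0.10 ± 0.23 (adjusted p = 0.787) with an interval of -0.58 to 0.39, lower in 2 of 4 donors, and it changed sign under library totals.

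miR-26a exceeded miR-26b-5p in every library, by 5.93 ± 1.01 times in perfusion, 6.58 ± 2.15 times on microcarriers and 8.52 ± 3.43 times on plates (SD, n = 4 each). The ratio ran from 4.87 to 6.87 in perfusion, from 4.39 to 8.42 on microcarriers and from 4.54 to 12.0 on plates. Plate donors 2 and 4 lay above all other libraries in this ratio and plate donor 3 lay among the lowest. Between perfusion and microcarriers the log2 ratio differed by -0.11 (exact two-sided permutation p = 0.629, and 0.714 after adjustment over the 2 exact tests made). Across the 12 libraries the 2 family members had a Pearson r of 0.48 in log2 level, and 0.16 once culture means were subtracted, which describes 12 libraries from 4 donors.

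**Figure D3:**
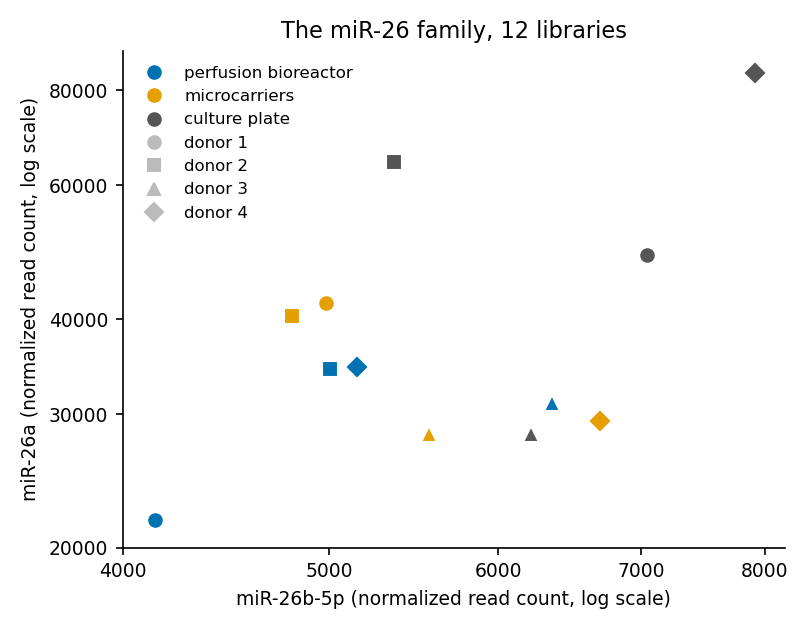
miR-26a (vertical) against miR-26b-5p (horizontal), both as normalized read counts on log axes, for 12 libraries coloured by culture and shaped by donor. miR-26b-5p spans 1.91-fold over all libraries and miR-26a 3.87-fold, and the plate libraries of donors 2 and 4 lie farthest up.

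Several other miRNAs followed miR-26a from library to library more closely than its family member did. Among 142 other miRNAs that averaged 100 or more normalized counts, the highest Pearson r with miR-26a in log2 level over the 12 libraries were those of let-7a (0.86), miR-7134-3p (0.85), miR-22-5p (0.82), miR-22-3p (0.76) and miR-10b (0.73). let-7a held 33185 to 36029 normalized counts in perfusion, 32608 to 67928 on microcarriers and 45183 to 103077 on plates, and like miR-26a it was lowest of the plates in donor 3 and highest in donor 4. Its close relatives in the let-7 family are near-identical in sequence, so reads could be split among them. Both arms of miR-22 followed, and miR-22-3p averaged 2847 ± 552 in perfusion, 3136 ± 478 on microcarriers and 5575 ± 3303 on plates, where donor 2 alone reached 10460. miR-10b, encoded in a HOX cluster, averaged 9442 ± 1685, 13400 ± 3172 and 15639 ± 6942 in the same 3 cultures (SD, n = 4 each).

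After each culture mean was subtracted, the highest values of r were those of miR-450a (0.89), miR-22-5p (0.80), miR-10a-5p (0.78), miR-7134-3p (0.76) and let-7a (0.75). These 5 values describe differences among the 4 libraries of a culture. miR-450a averaged 219.1 ± 42.2 in perfusion, 116.4 ± 18.2 on microcarriers and 142.7 ± 43.8 on plates, so its order of cultures was not that of miR-26a. The lowest r over the 12 libraries belonged to miR-17-5p (-0.78), a proliferation-linked miRNA, miR-132 (-0.74), linked to vessel growth and inflammation, and miR-20b (-0.74), a relative of miR-17-5p. miR-17-5p averaged 810.5 ± 120 in perfusion, 930.7 ± 286 on microcarriers and 553.4 ± 180 on plates. These correlations come with no test, since the 12 libraries come from 4 donors and were scaled together.

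**Figure D4:**
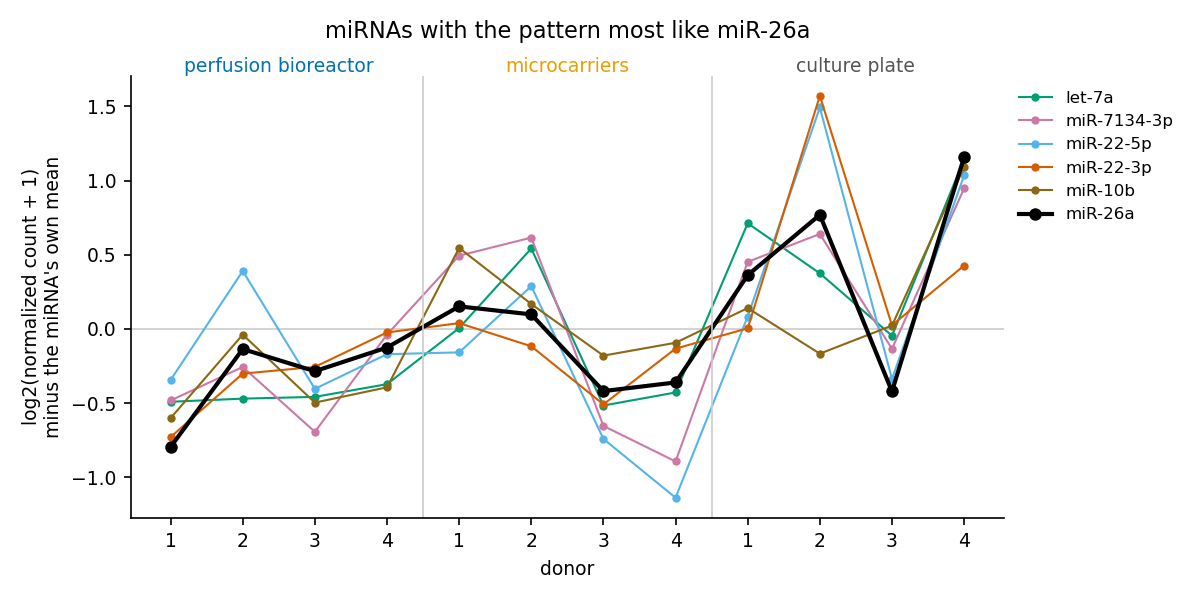
Level of miR-26a (black) and of the 5 miRNAs with the highest Pearson r with it (0.73 to 0.86), as log2(normalized count + 1) minus each miRNA's own mean over 12 libraries, by culture and donor. In plate donor 4 miR-26a reached its highest level and in plate donor 3 a level as low as on microcarriers.

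Among other miRNAs linked to bone and vessels, those called in perfusion against plates went in both directions, as did those called over all 252 miRNAs. In perfusion minus plates, 1 of 14 measured osteogenesis-promoting miRNAs was higher and 1 lower, with a median log2 difference of 0.30 against -0.06 over all 252 miRNAs, where 10.3% were called higher and 10.3% lower. The higher one, miR-210, induced by low oxygen, averaged 398.1 ± 59.9 in perfusion and 145.8 ± 46.1 on plates. The lower one, miR-27a, averaged 5626 ± 1420 in perfusion and 11839 ± 4647 on plates. Of 18 measured osteogenesis-restraining miRNAs, 1 was higher, miR-23a, and 1 lower, miR-30e-5p (951.6 ± 266 in perfusion and 2440 ± 772 on plates), with a median of 0.10.

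Of 16 measured angiogenesis-promoting miRNAs, 4 were higher in perfusion than on plates and 1 lower, against 10.3% of all miRNAs in each direction, with a median of 0.22. Among them miR-132 averaged 212.0 ± 142 in perfusion and 42.3 ± 24.8 on plates, while miR-126-3p, an endothelial marker, averaged 144.1 ± 29.1 in perfusion and 1234 ± 738 on plates. miR-210, miR-18a and miR-23a were the other 3 higher ones. Like miR-126-3p, the blood-cell and the liver and gut marker sums lay lower in perfusion than on plates, while muscle and neural sums overlapped. Perfusion is also the culture whose labels name no serum. The part of serum in the lower level of miR-126-3p was not tested. Of 11 measured angiogenesis-restraining miRNAs, miR-92a was higher and miR-320 lower, with a median of 0.31. The calls of miR-30e-5p, miR-126-3p and miR-132 held with any single library left out (highest adjusted p 0.0255, 0.0197 and 0.0415 in limma). The other 6 calls each ended with some library left out: that of miR-210 without perfusion donor 1 (adjusted p = 0.0511 in limma), that of miR-18a without perfusion donor 1 or 3 or plate donor 2 or 4 (up to 0.0658), and that of miR-27a without perfusion donor 1 or 3 or plate donor 1 or 2 (up to 0.0810). The call of miR-92a ended without any 1 of the 4 perfusion libraries or plate donor 1 or 2 (adjusted p up to 0.0894). The calls of miR-320 and miR-23a ended without any 1 of the 8 perfusion and plate libraries and also without microcarrier donor 3, and that of miR-23a without microcarrier donor 2 (adjusted p up to 0.113 and 0.132). Under library totals the call of miR-320 ended, with a pseudocount of 0.1 that of miR-23a, and in a fit of the 2 groups only that of miR-92a. Together 9 of the 50 listed miRNAs (18%) were called, near the 20.6% of all miRNAs, and 3, 4 and 4 were without perfusion donor 1, perfusion donor 3 and plate donor 2.

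On microcarriers against plates, 2 of the 50 miRNAs on these lists were called, both higher, against 1.59% of all miRNAs called higher. miR-210 averaged 967.7 ± 428 on microcarriers and 145.8 ± 46.1 on plates, with an adjusted p of at most 0.00951 in limma with any library left out. miR-23a, which is on the osteogenesis-restraining and the angiogenesis-promoting list, averaged 15917 ± 7326 on microcarriers and 5264 ± 908 on plates, and its call ended without plate donor 3, plate donor 4 or microcarrier donor 3 (adjusted p up to 0.0520 in limma) and in a fit of the 2 groups only. With donor as a block 9 of the 50 and 23 of all 252 were called, and without plate donor 1 the counts were 6 and 12. The median log2 difference was 0.19 for the osteogenesis-promoting, 0.31 for the osteogenesis-restraining, 0.68 for the angiogenesis-promoting and -0.12 for the angiogenesis-restraining list, against 0.11 over all miRNAs.

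In perfusion minus microcarriers, 7 of the 50 were called, 4 higher and 3 lower, against 5.56% of all miRNAs called higher and 9.92% called lower. With donor as a block 15 of the 50 and 59 of all 252 were called. Without perfusion donor 1 the counts were 4 and 24, and without perfusion donor 3 they were 4 and 25. Among osteogenesis-restraining miRNAs, the muscle-enriched miR-133a-3p (57.9 ± 16.2 in perfusion, 15.2 ± 5.46 on microcarriers) and the smooth muscle and stromal pair miR-145-5p and miR-143-3p were higher, and miR-30e-5p was lower. miR-143-3p averaged 87162 ± 19685 in perfusion and 45944 ± 12256 on microcarriers. The osteogenesis-promoting miR-27a was lower in perfusion, at 5626 ± 1420 against 14162 ± 2250 on microcarriers, and so was miR-126-3p, while the angiogenesis-restraining miR-503 was higher. Here too the blood-cell and the liver and gut marker sums lay lower in perfusion, beside overlapping muscle and neural sums, and the part of serum was not tested. The calls of miR-133a-3p, miR-27a and miR-126-3p held with any single library left out (adjusted p up to 0.0148, 0.0273 and 0.00389 in limma). That of miR-145-5p ended without perfusion donor 1 or 3 or microcarrier donor 1 (up to 0.0576), and that of miR-143-3p without perfusion donor 2 or 3 or microcarrier donor 1 or 4 (up to 0.0727). That of miR-503 ended without perfusion donor 1, 2 or 4 (up to 0.0599), and that of miR-30e-5p under library totals, without perfusion donor 1, 3 or 4 and without any microcarrier library (up to 0.119). Median log2 differences ran from -0.42 for the osteogenesis-restraining to 0.37 for the angiogenesis-restraining list, against -0.07 over all miRNAs.

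**Figure D5:**
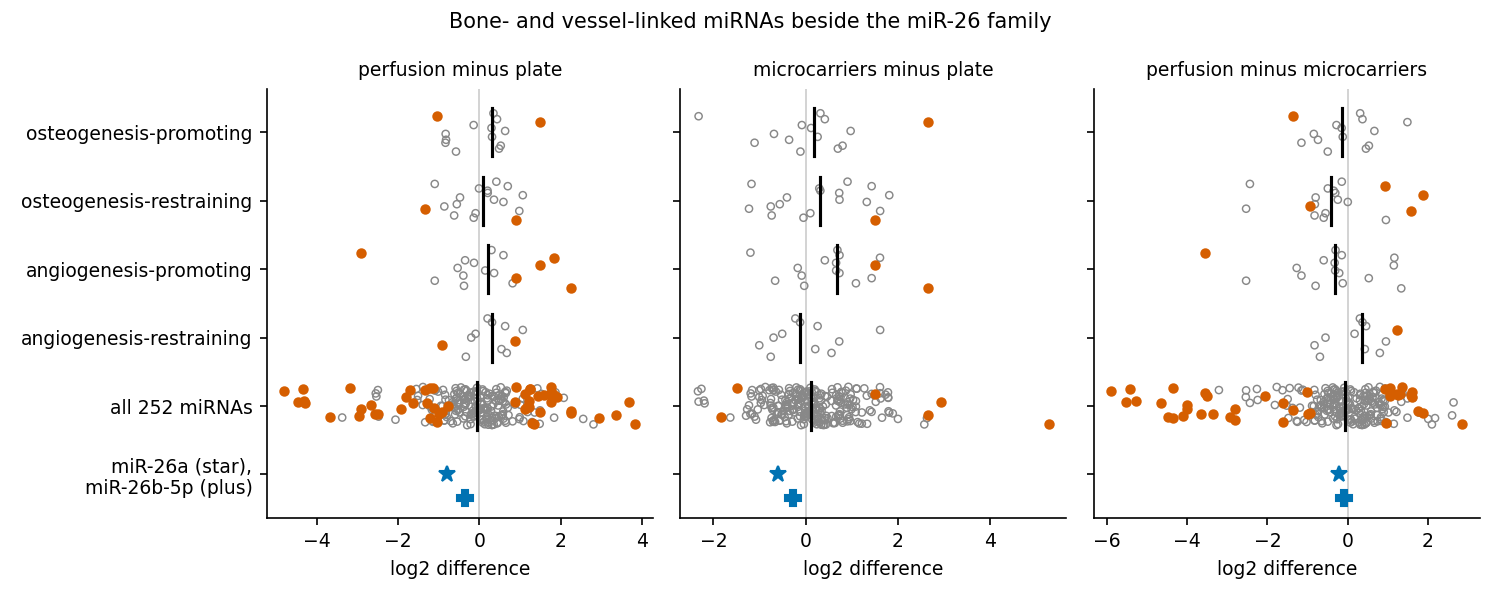
Log2 differences from the limma fit for the miRNAs of 4 lists, all 252 miRNAs, and miR-26a (star) and miR-26b-5p (plus) in the 3 comparisons; filled points passed an adjusted p of 0.05 and vertical bars are medians. Both family members lie left of 0 in each panel, at -0.80 and -0.36 in perfusion minus plates, where the medians of all 4 lists lie above 0. In the other panels list medians lie on either side of 0. The difference of miR-26b-5p in perfusion minus microcarriers turns to 0.05 under library totals.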

How the data were processed

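Vesicle RNA was made into small RNA libraries with a NEBNext kit, per the labels' protocols, and the submitters' processing notes name Bowtie. Its version, the genome build, the annotation and the read counter were not given in the sources used here. Per mature miRNA and library the authors deposited 1 signal value, which the header calls a normalized read count. Values were whole multiples of 1 step per library within 0.001 reads, and dividing by that step gave reads. The header gives each column a library number, which tied it to its sample.

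Each comparison came from 1 limma 3.58.1 fit (R 4.3.3, trend, Benjamini-Hochberg) of log2(value + 1) over all 12 libraries with culture as the factor, keeping rows that reached 1 in 4 or more libraries, as all 252 did. Limma was the test planned for normalized values. Count tests planned as alternatives were not run. miR-26a and the lists were chosen with earlier results of these data known. Named miRNAs were miR-26a, its seed relative, the 10 most abundant, rank neighbours, the highest and lowest correlations, and up to 4 calls per list with the smallest p. Same-numbered libraries come from 1 animal, and their deviations from culture means correlated at 0.02 to 0.67. Python 3.11.15 and SciPy 1.17.1 served for exact tests. No mature sequence was in the tables used here, so none is printed. Alternatives were the donor block, library totals, pseudocounts of 0.1 and 10, other filters, fits of 2 groups, other denominators and leaving out single libraries. Voom weights on reads and leaving out whole donors were added after seeing the data.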

Additional observations from a re-analysis of the deposited data

Results flagged for a closer look

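Microcarrier donor 1 stood apart in 2 marker sums. Its 7 blood-cell markers summed to 8852 normalized counts, against 2457 to 3020 in the other microcarrier libraries, and its 2 endothelial markers summed to 6092, against 944.8 to 1616. In each case the gap to the next library exceeded the 95% critical value for 4 samples, which chance passes in about 1 in 20 groups, and 42 groups were examined. The same library held the most miR-26a of its group, 41971 normalized counts, and its part in that level was not tested. No value of miR-26a or miR-26b-5p stood apart in this way.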

How the results depend on the processing

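The level of miR-26a in perfusion minus microcarriers kept its direction and missed the threshold in 20 of 20 alternatives, from -0.30 to -0.05 (log2, adjusted p 0.535 to 0.923 in limma). Among these, the donor block, other filters, the fit of 2 groups and leaving out a plate library cannot move the difference. It was -0.20 in each, so their direction was fixed in advance. Pseudocounts of 0.1 and 10 could hardly move it at this level of counts, and it was -0.20 with them too. The log2 difference of miR-26a from plates ran from -1.10 to -0.57 in perfusion and from -0.90 to -0.37 on microcarriers, lowest without plate donor 3 and highest without plate donor 4. The share in perfusion minus microcarriers ranged from -0.34 to 0.13 points with 1 library left out. It was above 0 without perfusion donor 1 (0.053, exact permutation p = 0.971) and without microcarrier donor 1 (0.128, exact permutation p = 0.743). Without donors 3 and 4 it was -0.94, but these donors alone had a higher share in perfusion (0.61 and 0.72 points). Leaving them out could thus only lower the difference, and too few libraries remained for a test to reach the threshold. In pairs of 4 donors, an exact permutation test of the share cannot reach p = 0.05. miR-26b-5p in the same comparison ranged from -0.20 to 0.0027 with 1 library left out, was 0.047 under library totals and 0.0001 without microcarrier donor 4. The cause of these sign changes was not tested.

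With donor as a replicate block, which pairs libraries of the same animal, 64, 23 and 59 miRNAs were called in perfusion minus plates, microcarriers minus plates and perfusion minus microcarriers, in place of 52, 6 and 39, and they included all of those. Of the 50 listed miRNAs, 9 were then called on microcarriers minus plates and 15 in perfusion minus microcarriers. Fits of 2 groups called 3 miRNAs and 1 listed miRNA on microcarriers minus plates. With 1 library left out, the calls ranged from 29 to 55, 3 to 12 and 22 to 49 in the 3 comparisons, and those of listed miRNAs from 3 to 9, 1 to 6 and 4 to 9; fewer libraries were tested. The count tests planned as alternatives were not run, and voom weights on the reads were used in their place. The widest counting interval of a miR-26a share, 4.86% to 5.03%, was narrower than the spread between libraries of a culture. With 1 library per donor and culture, donor, culture run and library preparation cannot be told apart.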
